A study of Mus musculus with 6 samples.

Results

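The genes of the urea cycle and of ammonia handling were described in the liver of pregnant mice. The set holds 10 genes: *Nags*, *Cps1*, *Otc* and *Slc25a15* for the mitochondrial steps, *Ass1*, *Asl* and *Arg1* for the cytosolic steps, the carrier *Slc25a13*, and *Glud1* and *Gls2*, which release ammonia from glutamate and glutamine. They are the rows of the deposited table whose gene identifier belongs to these symbols. No measured value entered this rule, but the symbols were listed with earlier results of these data known. All 10 were found among the 56691 genes of the table. All 10 also passed the minimum level for testing, a mean of at least 1 FPKM (read counts scaled by exon length and library total), together with 10866 genes in all.

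RNA was sequenced from the liver of 6 dams, 3 in each of 2 groups. KPF dams carried the genotype labelled hChrebp-KO, which the study's methods describe as *Chrebp* flox/flox with 1 copy of Cre driven by the albumin promoter (Cre+/-), which acts in hepatocytes. The floxed part is the second exon of a *Mlxipl* transcript and not the whole gene. WPF dams are labelled WT and are described in the methods as *Chrebp* flox/flox without Cre (Cre-/-). Dams of both groups carried the floxed alleles, were mated with *Chrebp* flox/flox males on day 0, received a high-fructose diet (HFrD, 70% fructose and 10 kcal% fat) after mating, and were killed on day 17. The ages of the dams are not given in the sources used here, and no chow-fed or non-pregnant liver was analysed here. The comparison asks which transcripts differ between livers with and without hepatocyte ChREBP, the carbohydrate-responsive transcription factor encoded by *Mlxipl*, under a fructose load in pregnancy.

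The urea cycle converts toxic ammonia into urea, and in mammals the complete cycle runs in hepatocytes, mainly those around the portal vein. Ammonia and bicarbonate are joined to carbamoyl phosphate in mitochondria, ornithine takes up this group to form citrulline, citrulline leaves for the cytosol, and aspartate brings the other nitrogen before arginine is split into urea and ornithine. Hepatocytes around the central vein take up what is left of the ammonia and fix it in glutamine. Glucagon, glucocorticoids and protein intake are known to induce the enzymes of the cycle.

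The libraries held 10694496 to 14496630 reads counted on genes, with all KPF libraries below all WPF libraries. Albumin was at 27226 to 56567 FPKM over the 6 libraries. *Mlxipl*, counted over all its exons, measured 179, 699.6 and 849 CPM in the KPF livers (replicates 1, 2 and 3) and 961, 1260.3 and 879 CPM in the WPF livers (replicates 2, 3 and 4). The groups did not overlap, as for 8.15% of all tested genes in this direction (exact two-sided permutation p = 0.1, the smallest that 3 against 3 allow). The fitted log2 fold change of *Mlxipl* was -0.84 with an SE of 0.53 (edgeR unadjusted p = 0.152, adjusted p = 0.584). CPM are counts scaled by library size with TMM, the trimmed mean of M-values. As the count covers exons outside the deleted part, it does not check the deletion. By the nominal rule used here (edgeR p under 0.05 before adjustment and at least 1.5-fold), 3.98% of all tested genes were lower in KPF. Of 8 known ChREBP targets, 7 were. Their summed level was 477 to 639.8 CPM in KPF and 5338 and 5592 CPM in WPF replicates 2 and 3, but only 715 CPM in WPF replicate 4, so that this library stood near the KPF libraries in these genes. Differences without WPF replicate 4 are therefore given beside those of the 10 genes and of the related genes past the nominal rule. Over all 10866 genes tested, 0 passed edgeR's quasi-likelihood test at an adjusted p of 0.05 (1177 had an unadjusted p under 0.05, and DESeq2 called 156 after adjustment). By the nominal rule, 634 genes were higher in KPF and 433 were lower. Scaling by library totals in place of TMM turned this split to 371 and 729, and limma on log2(TPM + 1) to 155 and 925.

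The promoters were read first, because ChREBP binds DNA at E-box sequences. RefSeq windows on GRCm38.p6, from 250 bases before to 50 after each start site, were found for 6 of the 10 genes: *Ass1*, *Slc25a13*, *Slc25a15* (with 2 start sites), *Nags*, *Glud1* and *Otc*. No window was found for *Cps1*, *Asl*, *Arg1* and *Gls2*. The E-box CACGTG, which reads the same on both strands, was present in the windows of *Ass1*, of *Slc25a13* and of the second start site of *Slc25a15*, against 7.15% of all 32851 windows. The paired E-box pattern known as the carbohydrate response element was present in 0 windows of the members and in 0.0% of all windows in its exact form. The 250 bases before the start site are printed 5′ to 3′ on the strand of the gene for these 3 windows, to show where the match lies, and for *Glud1*, a member with a larger fitted group difference, whose window held none of the patterns searched. Capitals mark the matches.
*Ass1*, chr2:31470020-31470269, plus strand: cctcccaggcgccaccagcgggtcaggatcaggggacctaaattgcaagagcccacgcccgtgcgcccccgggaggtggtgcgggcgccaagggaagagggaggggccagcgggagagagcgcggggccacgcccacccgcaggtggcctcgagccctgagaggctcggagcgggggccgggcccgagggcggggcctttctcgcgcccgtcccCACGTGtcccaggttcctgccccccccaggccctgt
*Slc25a13*, chr6:6217174-6217423, minus strand: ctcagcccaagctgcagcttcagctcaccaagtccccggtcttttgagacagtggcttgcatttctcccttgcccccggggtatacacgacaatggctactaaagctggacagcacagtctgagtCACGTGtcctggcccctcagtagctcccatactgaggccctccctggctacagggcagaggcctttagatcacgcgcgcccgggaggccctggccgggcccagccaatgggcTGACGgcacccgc
*Slc25a15*, chr8:22398278-22398527, minus strand: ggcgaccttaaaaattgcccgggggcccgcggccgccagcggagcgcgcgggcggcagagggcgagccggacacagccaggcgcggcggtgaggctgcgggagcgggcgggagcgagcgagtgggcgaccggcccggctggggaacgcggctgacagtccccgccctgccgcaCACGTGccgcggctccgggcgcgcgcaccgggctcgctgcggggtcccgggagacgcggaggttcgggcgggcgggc
*Glud1*, chr14:34310477-34310726, plus strand: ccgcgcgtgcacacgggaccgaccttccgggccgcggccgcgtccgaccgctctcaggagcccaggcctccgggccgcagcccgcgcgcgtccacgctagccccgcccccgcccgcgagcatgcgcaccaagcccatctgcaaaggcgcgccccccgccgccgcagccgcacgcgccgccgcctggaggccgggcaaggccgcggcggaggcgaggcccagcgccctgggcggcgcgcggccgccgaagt

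Counted from the start site, the first base of the E-box lay at -36 in *Ass1*, at -125 in *Slc25a13* and at -77 in *Slc25a15*. The *Slc25a13* window also held TGACG, the core of a cAMP response element, at -13, and the *Nags* window held it on the opposite strand at 31. This pattern was present in 20.8% of all windows. The complete element TGACGTCA (1.79% of all windows), the C/EBP pattern TTGCNNAA (10.8%) and the HNF4 pattern CAAAGTCCA (0.475%) were in none of the members' windows, which says only that these letters are not there. The windows of *Ass1*, of the second start site of *Slc25a15* and of *Glud1* were rich in G and C, at 75.6%, 80.4% and 82.0% of the 250 bases, while that of *Otc* held 43.6%.

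None of the 10 genes passed the adjusted test. In the reported edgeR fit with TMM, none passed the nominal rule in either direction, where 9.82% of all tested genes did. In none of the 10 did the 3 KPF libraries stand wholly above or below the 3 WPF libraries, as they did for 15.7% of all tested genes. The fitted log2 fold changes, KPF minus WPF, were positive for 4 genes and negative for 6 with TMM normalization, but negative for 9 with library totals and for all 10 with limma on log2(TPM + 1). They ran from -0.58 (*Glud1*) to 0.32 (*Asl*), with a median of -0.12 beside 0.016 for all tested genes. In bulk liver, fewer hepatocytes and less RNA of a gene per hepatocyte cannot be told apart. The 8 hepatocyte markers summed to 90820 to 116560 CPM in KPF and 116850 to 191840 CPM in WPF, most of it albumin, and their part in these values was not tested.

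**Figure D1:**
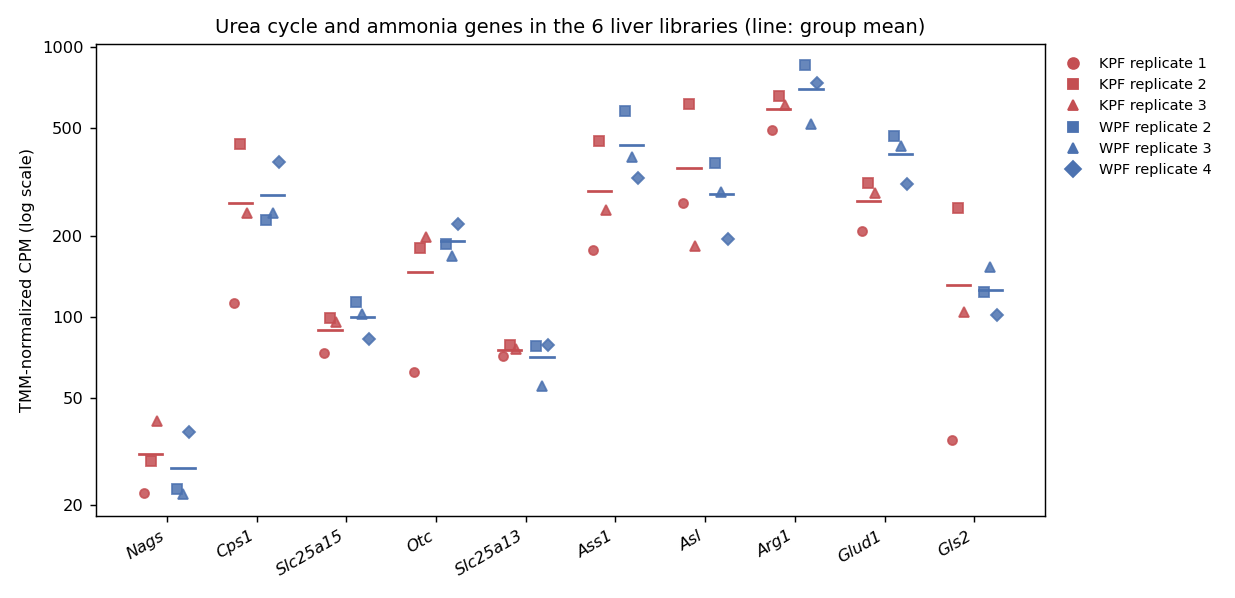
Level of each of the 10 genes in each liver library as TMM-normalized CPM on a log scale, with a line at each group's mean (n = 3 libraries). The KPF points (red) overlap the WPF points (blue) for every gene. KPF replicate 1 (circle) is the lowest point for 7 of the 10, a count not made over all tested genes.

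The mitochondrial steps begin with *Nags* (chr11:102036339-102040303, plus strand, GRCm39 here and for the genes that follow), whose enzyme makes N-acetylglutamate, the obligate activator of carbamoyl phosphate synthetase. *Nags* was at 22.2, 29.0 and 41.1 CPM in KPF against 22.8, 21.9 and 37.2 CPM in WPF. The groups covered much the same range. The means were 30.8 ± 9.58 and 27.3 ± 8.57 CPM (SD, n = 3 each), a log2 fold change of 0.17 with an SE of 0.31 (edgeR adjusted p = 0.849). Without KPF replicate 3, the highest library, the difference was -0.097, and without WPF replicate 4 it was 0.45. Of the 50-base words in the transcripts of *Nags*, 13.5% also occur in *Gm11586*. That gene lies on the opposite strand over *Nags* and held 0 to 4 reads per library.

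*Cps1* (chr1:67162185-67270418, plus strand) encodes carbamoyl phosphate synthetase, the entry enzyme of the cycle. It was at 112, 438 and 244 CPM in KPF against 228, 243 and 375 CPM in WPF. The lowest and the highest of the 6 values were thus both in KPF, where the libraries spanned 3.90-fold against 1.65-fold in WPF. The log2 fold change was -0.091 with an SE of 0.48 (edgeR adjusted p = 0.956), and its 95% interval reached from 0.431-fold to 2.04-fold. It changed sign without KPF replicate 1 (0.28) and without WPF replicate 4 (0.16).

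*Otc* (chrX:10118544-10187263, plus strand) encodes ornithine transcarbamylase, which makes citrulline. Its level was 62.5, 180.2 and 197 CPM in KPF and 187, 167 and 221 CPM in WPF. KPF replicate 1 stood far below every other library, and the other KPF values fell inside the WPF range. The log2 fold change was -0.38 with an SE of 0.42 (edgeR adjusted p = 0.757), and it was -0.018 without KPF replicate 1 and -0.28 without WPF replicate 4.

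*Slc25a15* (chr8:22865567-22888613, minus strand) encodes the mitochondrial carrier that exchanges ornithine for citrulline. It varied little, at 73.2, 98.9 and 95.1 CPM in KPF and 113, 102 and 82.3 CPM in WPF. Both groups spanned nearly the same range (1.35-fold and 1.37-fold), and the log2 fold change was -0.16 with an SE of 0.24 (edgeR adjusted p = 0.823). The 95% interval of the difference went from 0.609-fold to 1.32-fold, and without WPF replicate 4 the log2 difference was -0.28.

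In the cytosol, *Ass1* (chr2:31360219-31410684, plus strand) encodes argininosuccinate synthetase, which joins citrulline and aspartate. It was at 177, 451 and 249.7 CPM in KPF against 581, 391 and 328 CPM in WPF. Replicates 1 and 3 of KPF lay below all WPF libraries, whereas KPF replicate 2 lay between them. The means were 292 ± 142 and 434 ± 132 CPM (SD, n = 3 each), a ratio of 0.674 with a 95% interval from 0.351 to 1.30 (log2 fold change -0.57, SE 0.40, edgeR unadjusted p = 0.20, adjusted p = 0.627, exact two-sided permutation p = 0.3). The difference was -1.03 without KPF replicate 2 and -0.30 without WPF replicate 2, and it was -0.74 without WPF replicate 4. Of the 50-base words in its transcripts, 38.6% also occur in the gene *Gm5424*, so that the counting of *Ass1* reads is uncertain.

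*Asl* (chr5:130040099-130058088, minus strand) encodes argininosuccinate lyase, the enzyme of the next step. It was at 264, 618 and 183 CPM in KPF against 372, 289 and 195 CPM in WPF. KPF replicate 2 held the highest value and KPF replicate 3 the lowest. The log2 fold change was 0.32 with an SE of 0.48 (edgeR adjusted p = 0.822). Without KPF replicate 2 it was -0.36, and without WPF replicate 4 it was 0.096.

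*Arg1* (chr10:24791119-24803382, minus strand) encodes liver arginase, which releases urea. It was at 494, 661 and 611 CPM in KPF against 857, 517 and 736 CPM in WPF. The groups overlapped through WPF replicate 3, and the log2 fold change was -0.26 with an SE of 0.29 (edgeR adjusted p = 0.76), and -0.23 without WPF replicate 4. *Slc25a13* (chr6:6041218-6217173, minus strand) encodes citrin, the carrier that brings aspartate out of mitochondria for argininosuccinate. It was the steadiest of the set, at 71.4, 78.7 and 75.7 CPM in KPF and 78.1, 55.3 and 78.2 CPM in WPF. Its log2 fold change was 0.094 with an SE of 0.22 (edgeR adjusted p = 0.892, 95% interval 0.743-fold to 1.53-fold), and it was -0.056 without WPF replicate 3 and 0.17 without WPF replicate 4.

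*Glud1* (chr14:34032684-34067222, plus strand) encodes glutamate dehydrogenase, which frees ammonia from glutamate in mitochondria. Its fitted difference was the largest of the 10 genes with edgeR and TMM, closely followed by *Ass1*, and other genes led under other settings (*Ass1* under limma, for example). Its level was 209, 313 and 288 CPM in KPF and 469, 429 and 310.4 CPM in WPF, so that the groups overlapped only in KPF replicate 2 and WPF replicate 4. The means were 269.8 ± 54.2 and 403 ± 82.5 CPM (SD, n = 3 each), a ratio of 0.67 with a 95% interval from 0.424 to 1.06 (log2 fold change -0.58, SE 0.28, edgeR unadjusted p = 0.0773, adjusted p = 0.501, exact two-sided permutation p = 0.2). Without WPF replicate 4 the difference was -0.74 (edgeR unadjusted p = 0.0419, adjusted p = 0.439). In that fit 1186 of 10741 tested genes had an unadjusted p under 0.05. On leaving out any other single library, the edgeR unadjusted p of *Glud1* was 0.0613 to 0.218. Among the words of its transcripts, 6.49% also occur in *Glud-ps* or *Gm43444*.

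*Gls2* (chr10:128030326-128045873, plus strand) encodes liver glutaminase, which frees ammonia from glutamine. It was the most variable of the set, at 35.0, 253 and 104 CPM in KPF and 124, 152 and 101 CPM in WPF. The KPF libraries spanned 7.25-fold and enclosed the WPF libraries, which spanned 1.51-fold. The log2 fold change was 0.057 with an SE of 0.62 (edgeR adjusted p = 0.977), and the 95% interval reached from 0.386-fold to 2.81-fold. It was -0.87 without KPF replicate 2 and -0.086 without WPF replicate 4. *Spryd4* lies on the opposite strand over *Gls2* and held 159 to 249 reads per library, and the sources used here do not say whether reads were counted by strand.

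**Figure D2:**
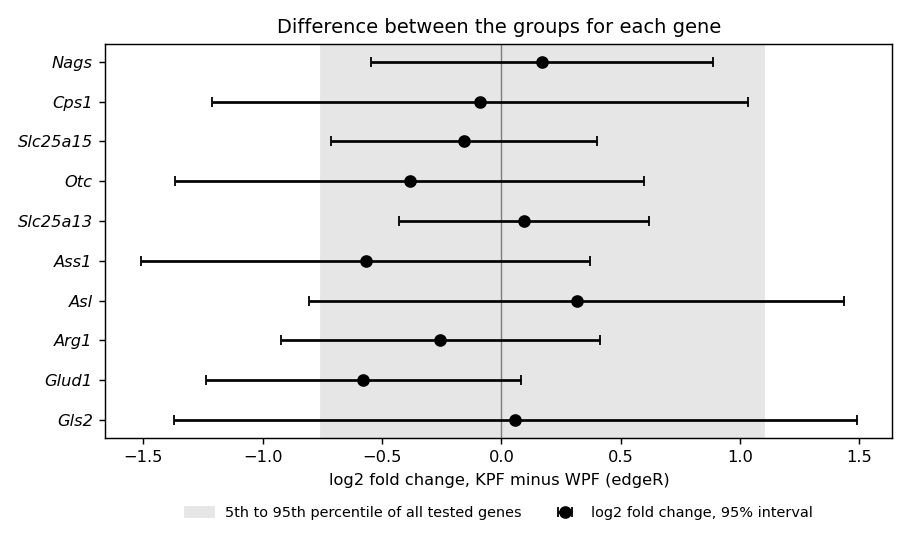
Fitted log2 fold change, KPF minus WPF, of each gene with its 95% interval from edgeR. The grey band holds the 5th to 95th percentile of all 10866 tested genes, every interval crosses 0, and the widest is that of *Gls2*.

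Per exon length, the order of the mean levels over the 6 libraries was *Arg1* (290.5 FPKM), *Ass1* (150.2), *Glud1* (80.1), *Asl* (66.0), *Cps1* (50.2), *Otc* (40.3), *Gls2* (37.1), *Slc25a13* (19.2), *Slc25a15* (16.7) and *Nags* (10.3). The enzymes of the cytosol thus stood in the upper part and the mitochondrial carriers and the activator enzyme at the lower end. *Arg1* exceeded *Ass1*, *Ass1* exceeded *Glud1* and *Slc25a15* exceeded *Nags* in all 6 libraries. *Glud1*, *Asl*, *Cps1* and *Otc* each exceeded the next gene in only 4 of 6 libraries, and *Gls2* and *Slc25a13* in 5, so that these neighbours were not separated beyond the spread between libraries. These FPKM are levels of transcripts and not of enzymes.

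The genes also differed between livers within KPF. Together they took 0.149% of the counted reads in KPF replicate 1, 0.310% in KPF replicate 2 and 0.188% in KPF replicate 3, against 0.257% to 0.290% in WPF. KPF replicate 1 was the lowest of the 6 libraries for 7 of the 10 genes and lay above the mean of the libraries for 0 of them. KPF replicate 2 lay above that mean for 9 and was the highest library for 4. These counts were not made over all tested genes, so they cannot tell whether this is particular to the set. Between KPF replicates 1 and 2, livers of the same label, 0 of 10 genes were higher in replicate 1. The median fold was 1.87 in favour of replicate 2, and *Gls2* differed by 7.16-fold. The median log2 difference over all tested genes was -0.00029, but TMM scaling, taken from these same genes, holds it near 0. The median fold of the 10 genes was 1.39 between KPF replicates 1 and 3 and 1.08 between KPF replicates 2 and 3. The 3 pairs of WPF libraries had median folds of 1.05 to 1.19. These medians are of signed differences, in which rises and falls cancel, so they describe common shifts, which were wider with KPF replicate 1. Single genes also differed in other pairs. *Asl* differed by 3.37-fold between KPF replicates 2 and 3 and by 1.91-fold between WPF replicates 2 and 4. The SD of the log2 level was larger in KPF than in WPF for 7 of 10 members, as it was for 62.9% of all tested genes.

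**Figure D3:**
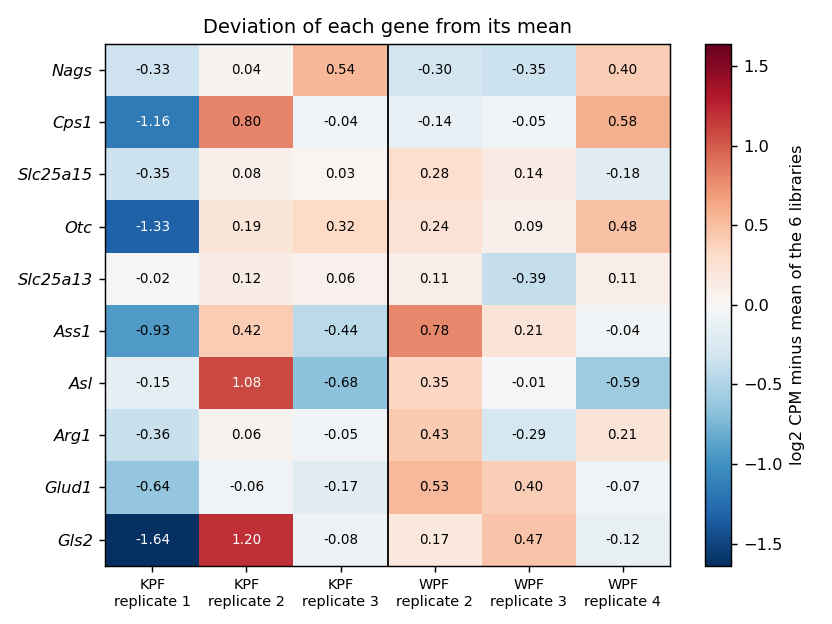
Deviation of each gene's log2 CPM from its mean over the 6 libraries (colour and printed value, blue below and red above the mean). The column of KPF replicate 1 is below the mean throughout, down to -1.64 for *Gls2*, and KPF replicate 2 reaches 1.20 for the same gene.

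Other measures moved between the same KPF libraries. *Mlxipl* was lowest in KPF replicate 1 (179 CPM, against 699.6 CPM in replicate 2), which also had the fewest counted reads. The 9 periportal hepatocyte markers summed to 679, 2776 and 997 CPM in KPF and 669 to 1119 CPM in WPF, and *Pck1*, a gluconeogenic enzyme, made up 1721 CPM of the sum in KPF replicate 2. The 11 pericentral markers ran from 1948 to 2905 CPM in KPF and from 1784 to 3191 CPM in WPF. Of the 11 stellate and endothelial markers, 8 had a positive and 3 a negative log2 fold change. By the nominal rule, 5 were higher in KPF (*Pecam1*, *Col1a1*, *Col3a1*, *Reln* and *Des*) and 0 lower, against 5.83% and 3.98% of all tested genes. *Stab2* was lower in KPF without overlap of the groups (25.6 to 30.6 CPM against 33.0 to 41.2 CPM), as for 8.15% of all tested genes. The 11 markers summed to 406, 733 and 229 CPM in KPF and 166 to 192 CPM in WPF. *Des* alone made up 486 CPM in KPF replicate 2. The 5 adipocyte and mesothelium markers summed to 12.4, 29.9 and 3.17 CPM in KPF and 0.761 to 2.67 CPM in WPF. *Adipoq* was at 0 in KPF replicate 3 and in WPF replicates 2 and 4. The 2 of these markers that were tested, *Cfd* and *Msln*, were higher in KPF by the nominal rule (background 5.83%). The 5 erythroid markers summed to 511, 103 and 287 CPM in KPF and to 47.4 to 325 CPM in WPF. Of the remaining lists, macrophage markers summed to 150.2 to 261 CPM over the 6 libraries, leukocyte markers to 7.34 to 19.3 CPM, cholangiocyte markers to 24.6 to 51.2 CPM and enterocyte markers to 75.2 to 299 CPM, the last with *Krt20* and *Cdx1* at 0 in every library. The part of these measures in the spread of the urea cycle genes was not tested.

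Within the set, the spread differed between genes. The SD of the log2 CPM within groups was 1.03 for *Gls2*, larger than in 95.5% of all tested genes, and 0.75, 0.72 and 0.66 for *Cps1*, *Asl* and *Otc*. It was 0.21 for *Slc25a13* and 0.23 for *Slc25a15*, so that the carriers varied less between livers than the enzymes and glutaminase. The median of the 10 was 0.50 beside 0.34 for all tested genes. As a description over 6 libraries, which share depth and composition between genes, the log2 levels of the 45 pairs of members had a median Pearson correlation of 0.50, with 24 pairs above 0.5 and 8 below 0. The closest pairs were *Slc25a15* and *Glud1* (0.89), *Ass1* and *Glud1* (0.89), *Slc25a15* and *Ass1* (0.86) and *Cps1* and *Gls2* (0.86). Correlations between pairs of other genes were not computed, so no baseline stands beside these values.

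By the same measure, the genes outside the set that were most like the mean of the 10 over the 6 libraries were *Crybg1* (0.996), *Ndufc2* (0.993), *Hal* (0.990) and *Fn3k* (0.990), together with ENSMUSG00002075134 (0.990), which held at most 0.531 CPM. *Hal* encodes histidase, which frees ammonia from histidine, and was at 31.0, 251 and 108 CPM in KPF and 182, 111 and 106 CPM in WPF. The low first and high second KPF library of *Hal* repeat the order seen for *Gls2*, which is part of the mean by which *Hal* was picked.

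Ratios of FPKM within a library compare steps with each other. *Ass1* over *Asl*, consecutive steps, was 1.34, 1.46 and 2.73 in KPF and 3.13, 2.70 and 3.38 in WPF, so that 2 of 3 KPF ratios lay below all WPF ratios and the third among them. The exact two-sided permutation p was 0.2, and 0.8 after adjustment over the 4 ratios computed. *Cps1* over *Otc* was 0.942 to 1.86 in KPF and 0.932 to 1.30 in WPF (exact permutation p = 0.4). *Glud1* over *Glul*, which encodes glutamine synthetase, was 0.245, 0.530 and 0.567 in KPF and 0.432 to 0.672 in WPF (exact permutation p = 0.6). None of the adjusted p was below 0.8.

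Paralogs of the members were far lower per exon length. *Slc25a13* stood above *Slc25a12*, the carrier aralar, by 9.37 to 24.3 times in KPF and 12.0 to 21.1 times in WPF (exact permutation p = 0.8). *Arg2*, the mitochondrial arginase, had 0 to 4 reads per library, and its ratio to *Arg1* was not computed. Of the 4 paralogs examined, only *Slc25a12* reached the level for testing (log2 fold change 0.18, SE 0.43, edgeR adjusted p = 0.892).

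**Figure D4:**
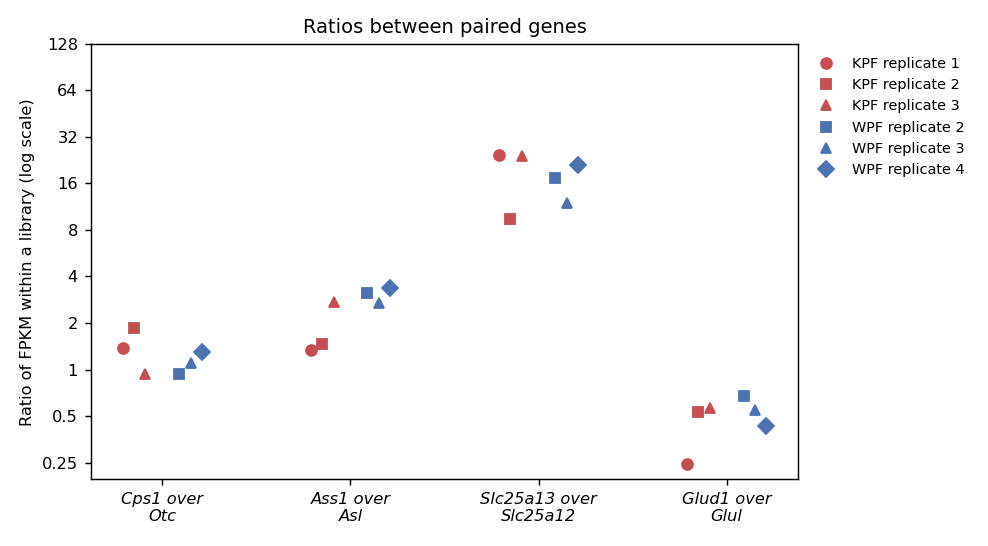
Ratio of the FPKM of paired genes in each library, on a log scale. For *Ass1* over *Asl*, KPF replicates 1 and 2 (1.34 and 1.46) lie below the other 4 libraries, and for *Glud1* over *Glul* KPF replicate 1 is the lowest point.

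Among the genes around the cycle, none passed the adjusted test in edgeR as fitted here, although *Aqp8* and *Ddah1* passed it without the filter on low genes (adjusted p = 0.0125 and 0.0145). Of 14 tested genes of ammonia, glutamine and urea transport, 0 were higher and 3 were lower in KPF by the nominal rule (background 5.83% and 3.98%). *Aqp8*, a water channel that also passes ammonia, was at 29.9, 20.5 and 43.6 CPM in KPF against 207, 212 and 41.1 CPM in WPF, so that WPF replicate 4 fell among the KPF libraries. Its log2 fold change was -2.29 with an SE of 0.61 (edgeR unadjusted p = 0.0063, adjusted p = 0.43). It was -2.75 without WPF replicate 4 (adjusted p = 0.0929), and DESeq2 gave an adjusted p of 0.00708. *Slc25a22*, a mitochondrial glutamate carrier, was at 95.5, 83.6 and 74.0 CPM in KPF against 216, 118 and 130.3 CPM in WPF (log2 fold change -0.87, SE 0.30, edgeR unadjusted p = 0.0195, adjusted p = 0.43), with a difference of -0.99 without WPF replicate 4. *Slc38a2*, a glutamine transporter, was at 61.8, 101 and 81.6 CPM in KPF against 122, 140.4 and 111 CPM in WPF (log2 fold change -0.61, SE 0.26, edgeR unadjusted p = 0.0468, adjusted p = 0.456), with a difference of -0.70 without WPF replicate 4. The groups of *Slc25a22* and of *Slc38a2* did not overlap, as for 8.15% of all tested genes in this direction. The unadjusted p of *Slc25a22* exceeded 0.05 without KPF replicate 3 (0.0596) and without WPF replicate 2 (0.082), and that of *Slc38a2* without any library but KPF replicate 2 (0.0519 to 0.142).

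*Glul*, the pericentral enzyme that fixes ammonia in glutamine, was at 767, 530.1 and 456 CPM in KPF against 627, 707 and 645 CPM in WPF. Its highest and its lowest values were both in KPF, and its log2 fold change was -0.17 with an SE of 0.28 (edgeR adjusted p = 0.83). The median log2 fold change of the transport list was -0.025, beside 0.016 for all tested genes.

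Of 16 tested genes of ornithine, arginine and proline use, 1 was higher and 1 lower in KPF by the nominal rule (background 5.83% and 3.98%). The list median was 0.13. *Agmat*, annotated as an agmatinase, was at 118, 179 and 105 CPM in KPF and 70.9, 70.1 and 80.2 CPM in WPF. Every KPF library was above every WPF library (log2 fold change 0.86, SE 0.27, edgeR unadjusted p = 0.0132, adjusted p = 0.43), and the difference was 0.92 without WPF replicate 4. The unadjusted p of *Agmat* exceeded 0.05 with library totals in edgeR (0.0513) and under the 3 limma fits (0.0591 to 0.133). *Ddah1*, which breaks down methylated arginine to citrulline, was at 10.1, 11.3 and 15.3 CPM in KPF and 38.9, 29.3 and 26.1 CPM in WPF. All KPF libraries were below all WPF libraries, WPF replicate 4 included (log2 fold change -1.36, SE 0.25, edgeR unadjusted p = 0.000704, adjusted p = 0.415, DESeq2 adjusted p = 0.00245), and the difference was -1.49 without WPF replicate 4.

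Among 18 tested nitrogen donors, the enzymes that take nitrogen from amino acids, 0 passed the nominal rule in either direction (background 9.82%). The list median was 0.027. The smallest p belonged to *Aspg*, an asparaginase, at 82.9, 475 and 144 CPM in KPF and 726, 691 and 409 CPM in WPF, with an overlap through KPF replicate 2 (log2 fold change -1.38, SE 0.63, edgeR adjusted p = 0.473). *Gldc*, of the glycine cleavage system, was at 13.9 to 45.2 CPM in KPF and 30.3 to 64.9 CPM in WPF (log2 fold change -0.98, SE 0.49, edgeR adjusted p = 0.505). *Kyat1*, an aminotransferase, was at 388 to 495 CPM in KPF and 307 to 349 CPM in WPF (log2 fold change 0.44, SE 0.23, edgeR adjusted p = 0.528).

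Among 13 tested regulators known to act on urea cycle genes, 1 was higher and 0 were lower by the nominal rule (background 5.83% and 3.98%). The list median was 0.054. *Nr1h4*, the bile acid receptor FXR, was at 216, 309 and 208 CPM in KPF and 136, 171 and 168 CPM in WPF, without overlap of the groups, as for 7.55% of all tested genes in this direction (log2 fold change 0.62, SE 0.26, edgeR unadjusted p = 0.0458, adjusted p = 0.456). Its unadjusted p exceeded 0.05 under 11 of 16 other settings, among them the fits without KPF replicate 2, WPF replicate 2, WPF replicate 3 or WPF replicate 4 (0.0768 to 0.152), the last with a difference of 0.66. The log2 fold changes of the list ran from -0.51 for *Foxa2*, a liver transcription factor, to 0.74 for *Creb3l3*, a membrane-bound factor induced in fasting, with edgeR adjusted p of 0.572 and 0.555.

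**Figure D5:**
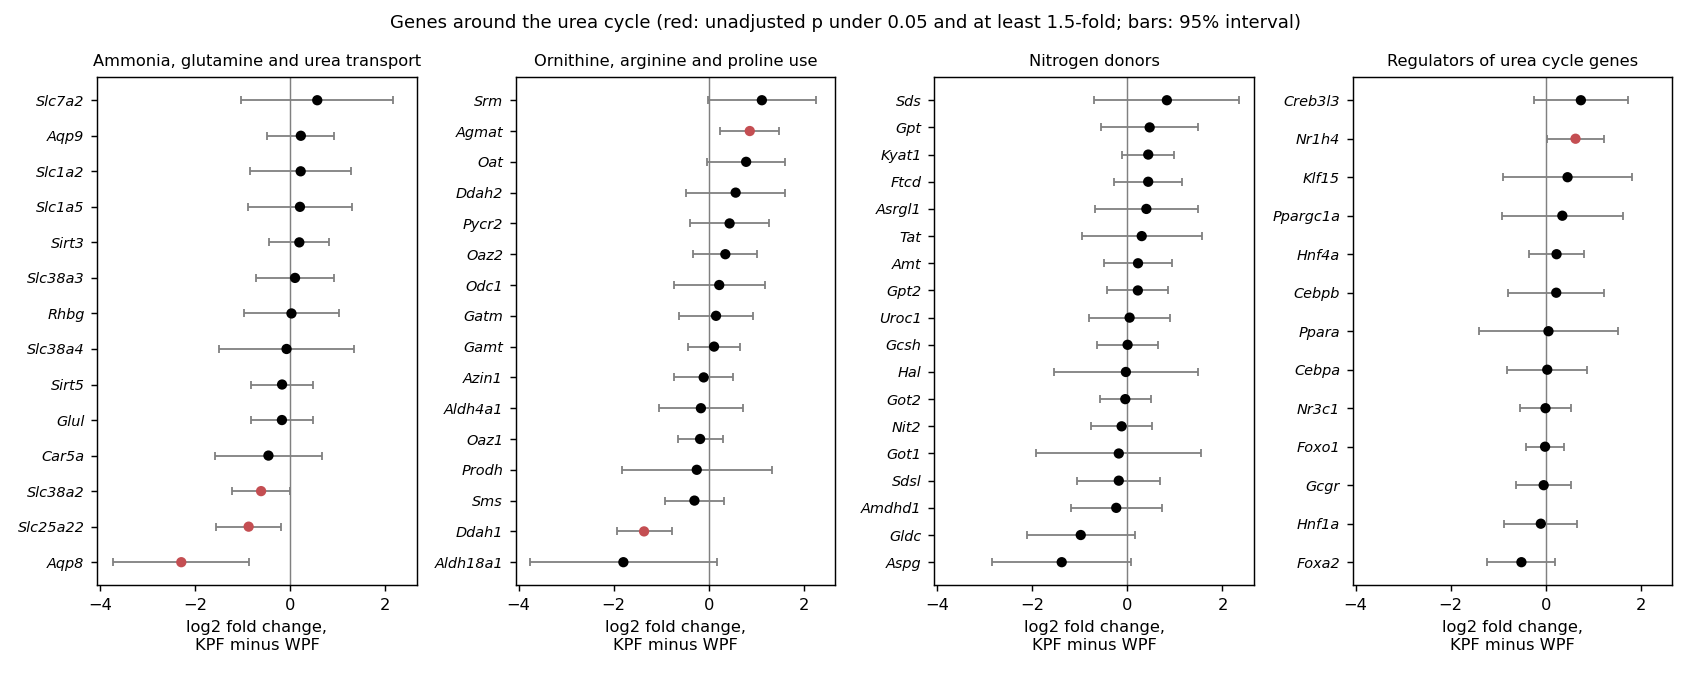
Fitted log2 fold change, KPF minus WPF, with 95% interval for the tested genes of 4 lists around the urea cycle. Red points passed an unadjusted p of 0.05 with at least 1.5-fold, 3 of 14 for transport, 2 of 16 for ornithine, arginine and proline use, 0 of 18 for nitrogen donors and 1 of 13 for regulators. Over all tested genes, 9.82% passed.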

How the data were processed

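Liver mRNA of 3 KPF and 3 WPF dams was sequenced after poly(A) selection. Per the labels' processing notes, the authors used cutadapt 1.9.1, HISAT2 2.2.1, HTSeq 0.6.1 and DESeq2 with the genome build GRCm39. The deposited table holds the authors' raw counts and their FPKM for each gene, and 100.0% of the deposited FPKM equal the count over exon length and library total within 0.0051. Whether counting used strand is not given in the sources used here.

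Samples were grouped by the labels. Genes were kept at a mean FPKM of 1 or more, and their counts were tested with edgeR 4.0.16 (R 4.3.3, quasi-likelihood, TMM, 3 against 3), and p was adjusted by Benjamini-Hochberg over all of them. CPM are TMM-normalized. Gene values are given in the order KPF replicates 1, 2 and 3 and WPF replicates 2, 3 and 4. Exact two-sided permutation tests covered all 20 assignments of 3 against 3, so p cannot go below 0.1. Symbols were matched through GENCODE M21 and RefSeq tables for 52073 of 56691 identifiers. Alternatives were DESeq2 1.42.0, limma 3.58.1 on log2(FPKM + 1), log2(FPKM + 0.1) and log2(TPM + 1), other scalings and filters, a replicate block and leaving out each library. P-values set a group difference against the spread between these livers. Scripts were tested on simulated data.

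The 10 members and all lists were chosen with earlier results of these data known. Genes named beside the members are those past the nominal rule in each related list, otherwise the 3 with the smallest p, the 5 most like the members' mean, *Mlxipl* and genes at the ends of a range. *Glul* and the single markers were chosen after their values were seen. The comparison of 50-base words was added after the data were seen, in place of a comparison of protein sequences, which was not made. A further paralog and its ratio, beside those given, are not reported here. GRCm38.p6 promoter coordinates were not combined with the GRCm39 coordinates of the table.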

Additional observations from a re-analysis of the deposited data

How the results depend on the processing

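None of the 10 genes reached an adjusted p of 0.05 under any of 16 alternatives (smallest 0.405). Of the 160 values of the members in the tests of these alternatives, 8 had an unadjusted p under 0.05. These were 6 values of *Glud1* and 2 of *Ass1*. In the reported fit, 10.8% of all tested genes had an unadjusted p under 0.05. The alternatives use the same 6 livers, so their values are not independent. The signs of *Arg1*, *Ass1*, *Glud1* and *Slc25a15* were negative under all 16, at -0.48 to -0.067, -1.03 to -0.30, -0.81 to -0.42 and -0.39 to -0.032. The other 6 genes changed sign in 21 of their values. Leaving out each library in turn gave -0.097 to 0.45 for *Nags*, -0.67 to 0.28 for *Cps1*, -0.056 to 0.17 for *Slc25a13*, -0.36 to 0.63 for *Asl* and -0.87 to 0.51 for *Gls2*, and -0.46 (without KPF replicate 2) to 0.058 (without KPF replicate 1) for the median of the 10. With library totals in place of TMM, *Nags* was at -0.0047, *Slc25a13* at -0.034 and *Gls2* at -0.054, while the median of all tested genes shifted to -0.12 and that of the 10 to -0.26. Limma gave *Slc25a13* -0.013 and *Gls2* -0.44 on log2(FPKM + 1), and -0.013 and -0.47 on log2(FPKM + 0.1), where all tested genes had medians of -0.093 and -0.12. On log2(TPM + 1), with a median of all genes of -0.21, it gave *Nags* -0.072, *Slc25a13* -0.13, *Asl* -0.070, *Gls2* -0.57 and the median of the 10 -0.49. Without a filter, *Gls2* was at -0.0069. With the replicate block, which compares only the numbers 2 and 3 that both groups carry, *Cps1* was at 0.47 and *Otc* at 0.094, and the nominal rule gave 680 genes higher and 551 lower. Libraries of the same number were not alike (correlations of their deviations from the group means 0.0446 and -0.0166), so the numbers were not taken to pair dams. The block changed no call of a member.

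Genes past an adjusted p of 0.05 numbered 156 with DESeq2, 286 without a filter, 1 with limma on log2(TPM + 1) and 0 to 5 on leaving out a library, the 5 without WPF replicate 4. Genes higher and lower by the nominal rule numbered 371 and 729 with library totals, 1576 and 910 without a filter, and 255 and 205 with a mean FPKM of at least 5, which tests fewer genes. With limma they numbered 237 and 540 on log2(FPKM + 1), 288 and 700 on log2(FPKM + 0.1) and 155 and 925 on log2(TPM + 1). Leaving out 1 library gave 331 (without WPF replicate 3) to 922 (without KPF replicate 3) higher, with 364 without WPF replicate 2, and 245 (without WPF replicate 3) to 712 (without KPF replicate 3) lower, with 278 without KPF replicate 1. Apart from fewer genes tested or fewer libraries, the cause was not tested. With 3 livers a group, the 95% interval of *Slc25a13* spans 0.743-fold to 1.53-fold and that of *Gls2* 0.386-fold to 2.81-fold. Differences inside these intervals remain possible. The intervals are not limits of detection, as larger differences also missed the adjusted threshold (*Ddah1*, at 0.39-fold, had an edgeR adjusted p of 0.415).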
